A study of Macaca fascicularis with 48 samples.

Results

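The transcripts described here were those that stood higher in the same member of every animal's pair of cortex libraries. The study sampled frontal cortex of 24 cynomolgus monkeys (Macaca fascicularis), took 2 punches of tissue from each animal and made 1 bulk RNA-seq library from each. Titles number the libraries 1 to 48, and each animal has 1 library numbered 1 to 24, called the first set here, and 1 numbered 25 to 48, called the second set. The labels do not say where in the frontal cortex either punch lay, so the names of the sets stand for title numbers and not for a site. Of 28623 Ensembl gene IDs in the files, 95 met the rule. CPM is the count of a gene per 1000000 counts of its library. A gene was taken if its mean over the 48 libraries was at least 1 CPM, it was not among the 30 most counted IDs, its CPM was higher in the second-set library in all 24 animals, and the mean over animals of log2((CPM + 0.5) of the second-set library / (CPM + 0.5) of the first-set library) was at least 0.5. This mean is called the set ratio below. The first 2 conditions left 14339 genes.

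An antibody was injected intravenously once in every animal, at 200 mg/kg. There were 6 animals given hPara.09 (labelled Para09.v2) with brain taken on day 4, 6 given anti-gD with brain taken on day 4, 6 given hPara.09 with brain taken on day 28, and 6 given anti-gD with brain taken on day 28. The labels used here give no age for the animals. The anti-gD antibody is an isotype control, and hPara.09 is an agonist of TREM2, a surface receptor of microglia, the resident macrophages of the brain. No untreated animals were analysed here, so every group carried an injected antibody.

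Cerebral cortex is built in layers of neurons over white matter, with astrocytes, oligodendrocytes, microglia and blood vessels among them. Frontal areas differ from each other in the make-up of these layers. In bulk RNA, fewer cells of a type and less RNA per cell cannot be told apart. The files pair no ID with a gene name, and the reference table used here matched 0 of the IDs. Genes are therefore given by ID, no function is attached to any of them, and neither markers of cortex or its cell types nor pathway lists were analysed here. No sequence is printed for the same reason. The labelled tissue was thus not checked against markers.

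Libraries held 12137146 to 32118950 counts, with a median of 20918721. Second-set libraries held 12137146 to 29740115 counts (median 19442901), and first-set libraries 16612369 to 32118950 (median 22149963). The second-set library was the deeper of the pair in 8 of 24 animals, and it had fewer IDs detected in 19 of 24. The 30 most counted IDs took 16.9% to 39.3% of the counts in the second set and 16.7% to 31.0% in the first. The counts were 57.7% to 65.0% of the read number behind the deposited RPKM values in the second set and 57.1% to 64.4% in the first. This share differed more by day. Its group means in either set were 61.8% to 62.5% at day 4 and 58.6% to 60.9% at day 28. Its bearing on the comparison of days was not tested. The shallowest libraries, 29 of animal 5 and 40 of animal 16, both belong to the second set.

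The 95 genes together made up 0.775% of the counts in the second set and 0.520% in the first. Their summed level was 5607 to 9295 CPM in second-set libraries (median 7611) and 4112 to 6465 CPM in first-set libraries (median 5118). It was higher in the second set in 24 of 24 animals, which the rule fixes. Across animals the sets overlapped, with 2 second-set libraries below the highest first-set library and 7 first-set libraries above the lowest second-set library. In hPara.09 day 4 animals the summed level averaged 7783 ± 1218 CPM in the second set and 5186 ± 481 CPM in the first (SD, n = 6). In anti-gD day 4 animals it averaged 7730 ± 1121 CPM in the second set and 5324 ± 879 CPM in the first (SD, n = 6). The day 28 animals given hPara.09 stood at 7550 ± 969 CPM in the second set and 5312 ± 531 CPM in the first (SD, n = 6). Those given anti-gD stood at 7926 ± 789 CPM in the second set and 4980 ± 509 CPM in the first (SD, n = 6). Each group mean of the second set lay above every group mean of the first, and the group means within a set differed by less than their SDs.

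**Figure D1:**
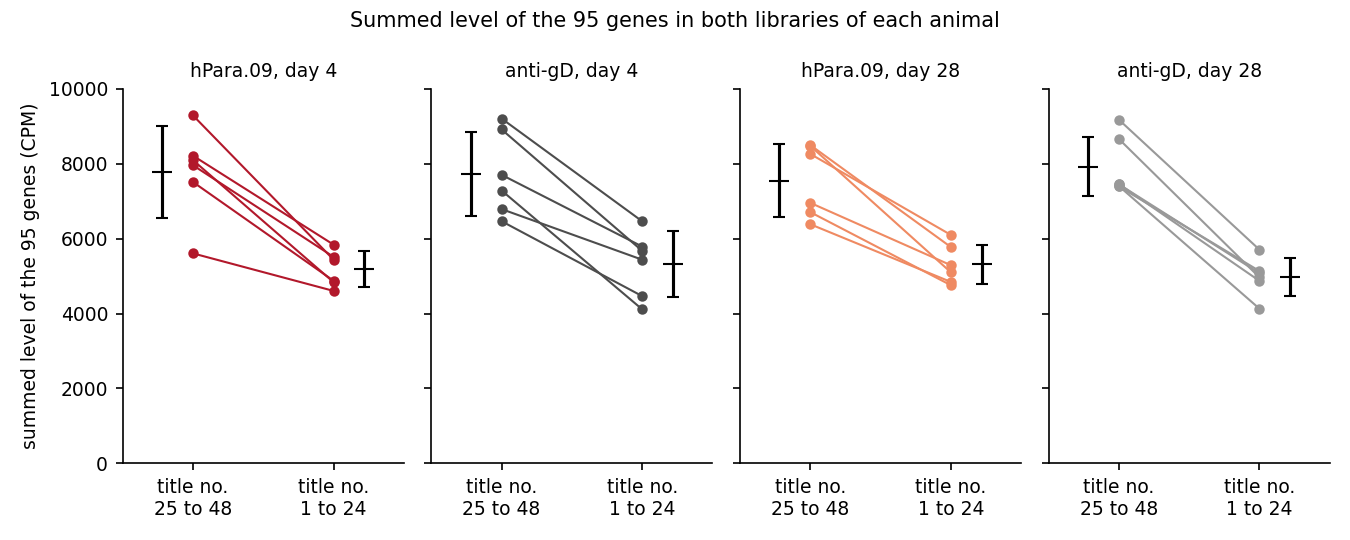
Summed level of the 95 genes (CPM) in the second-set library (title numbers 25 to 48, left) and the first-set library (title numbers 1 to 24, right) of each animal, 1 panel for each group of 6 animals. Points joined by a line belong to 1 animal and the bars show mean ± SD. The second-set point is the higher one in all 24 animals, which the choice of genes fixes, and the levels of the groups overlap.

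The direction was rare among the genes that could have met it. Of the 14339, 376 were higher in the second set in all 24 animals, 2.62%, and 95 were lower in all 24, 0.663%. Of the 376, 281 had a set ratio under 0.5. A mirror rule, lower in all 24 animals with a set ratio of at most -0.5, gave 49 genes, which are used as a comparison below. The set ratios of the 95 chose them and are given as a description. They ran from 0.50 to 0.82 with a median of 0.57, so most were modest. Those of all 14339 genes had a median of -0.02 and quartiles of -0.20 and 0.15. The smallest ratio of any of the 95 in any animal was 0.00137 and the largest 1.81, and 61.7% of their ratios in single animals were at least 0.5. For none of the 95 did the second-set libraries all lie above all first-set libraries. The share over all 14339 genes is not given here, so nothing particular to the 95 is read from this.

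The largest set ratio belonged to ENSMFAG00000009769. Its level was 8.13 to 33.2 CPM in the second set (median 19.8) and 5.39 to 18.9 CPM in the first (median 10.0). The spread between animals was wide enough for the sets to overlap, although the second-set library was higher in every pair. The mean log2 ratio was 0.82 ± 0.41 (SD, n = 24), a 1.77-fold difference, and single animals lay between 0.22 and 1.81. ENSMFAG00000030460 came next at 0.81 ± 0.30 (SD, n = 24), which is 1.75-fold. This low-level gene stood at 1.36 to 5.97 CPM in the second set (median 2.53) and 0.654 to 5.90 CPM in the first (median 1.24), with a lowest count of 13 in a library. Animal 8 of the hPara.09 day 4 group was high in both libraries, at 5.97 CPM in the second set and 5.90 CPM in the first, and no other library passed 3.67 CPM.

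The gene with the highest mean CPM among the 95 was ENSMFAG00000042941. It was at 1018 to 3244 CPM in the second set (median 1955) and 795 to 1930 CPM in the first (median 1453). Its mean log2 ratio was 0.52 ± 0.30 (SD, n = 24), 1.44-fold. ENSMFAG00000026126 followed at 472 to 852 CPM in the second set (median 623) and 353 to 544 CPM in the first (median 406), with a ratio of 0.60 ± 0.21 (SD, n = 24), 1.52-fold. Compared per length, the order of the pair was the reverse. Mean RPKM, the level per kilobase of gene width, was 1838 for ENSMFAG00000026126, whose width is 177 bases, and 1155 for ENSMFAG00000042941, whose width is 887 bases. At the limit of the rule, ENSMFAG00000044797 lay just inside with a set ratio of 0.5005 and ENSMFAG00000035927 just outside with 0.4991. The gene just inside was at 16.6 to 36.7 CPM in the second set and 12.0 to 25.5 CPM in the first, with a ratio of 0.00137 in the animal nearest to breaking the rule. The gene just outside was at 6.76 to 14.1 CPM in the second set and 5.52 to 9.86 CPM in the first, and its lowest ratio was 0.16.

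**Figure D2:**
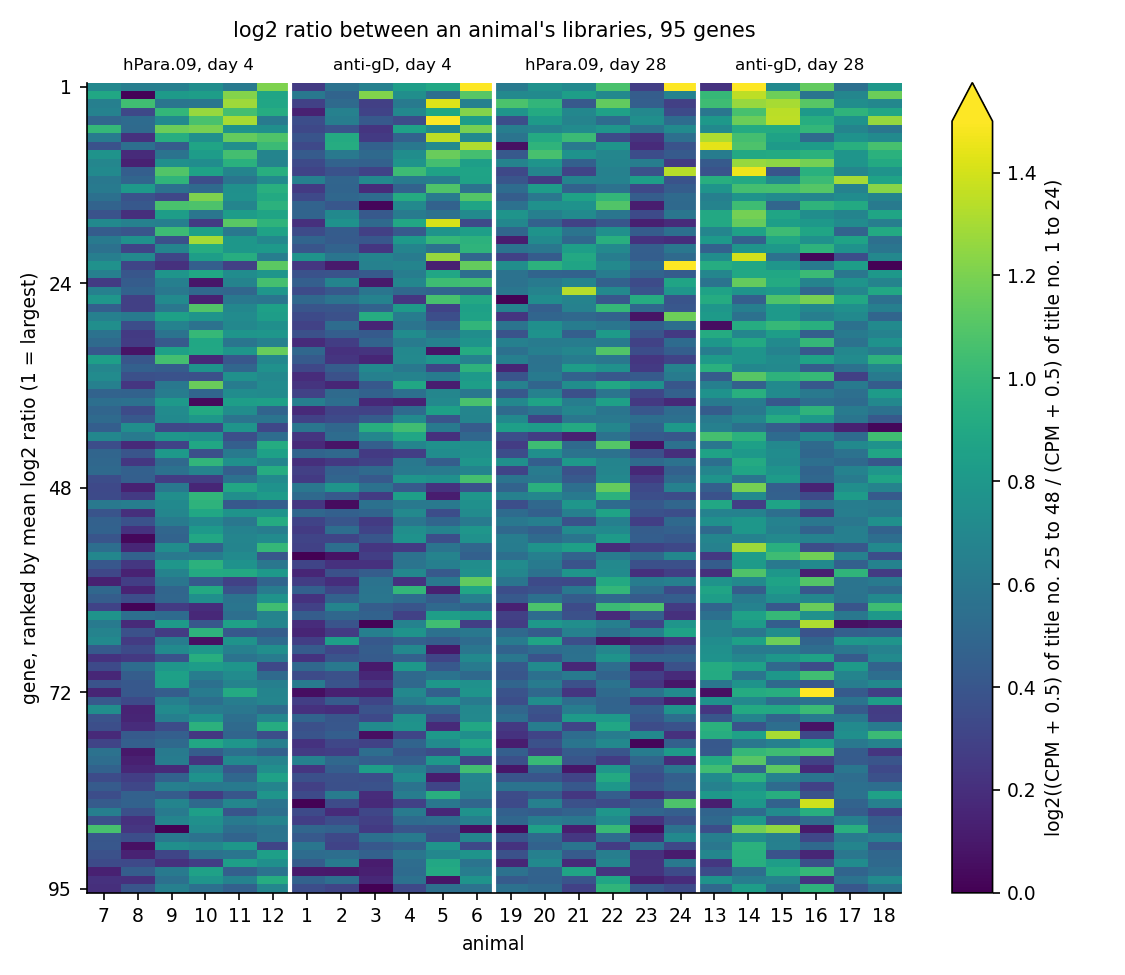
Log2 ratio of the second-set to the first-set library for each of the 95 genes (rows, ranked by mean ratio) in each of the 24 animals (columns, by group), with dark cells near 0 and bright cells at 1.5 or more. Whole columns are darker in animals 1, 8 and 23 and brighter in animals 14 and 15.

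The size of the difference varied by animal as well as by gene. The mean log2 ratio over the 95 genes was 0.592 ± 0.138 (SD, n = 24), from 0.35 in animal 1 to 0.84 in animal 14. The number of the 95 genes at a ratio of at least 0.5 was 14 in animal 1 and 88 in animal 14, with a median of 68 over the animals. In the 8 animals whose second-set library was the deeper, the mean was 0.544 ± 0.130 (SD, n = 8), and in the other 16 it was 0.616 ± 0.139 (SD, n = 16). The ranges, 0.35 to 0.68 and 0.35 to 0.84, overlapped. The rule fixes that the ratio was above 0 in both kinds of pair. Thinning every library to the smallest total left 78 genes under the same rule, 72 of them among the 95.

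The genes chosen by the rule were short. Gene width, which the rule did not use, had a median of 1032 bases over the 95 genes, 2695 over the 49 genes of the mirror rule and 2911 over all 14339. The quartiles of the 95 were 713 and 1624 bases, both below the lower quartile of all genes at 1707. Of the 95, 47.4% were under 1000 bases wide, against 12.2% of the 49 and 10.5% of all 14339, and 7 of the 95 were wider than the median of all genes. The 14339 genes were also divided by width into 5 bins of like size. The shortest bin, 59 to 1480 bases wide, held 69 of the 95, 72.6%. They were 2.41% of the genes in that bin, and the share was 0.488% in bin 2, 0.279% in bin 3 and 0.0697% in each of the longest 2 bins. The genes of the mirror rule were 0.558% of the shortest bin and 0.209% to 0.384% of the others.

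The 95 genes were also the shorter ones among genes of like level. Divided by mean CPM into 3 bins of like size, 24 of the 95 lay in the lowest bin and had a median width of 1136 bases, against 2148 bases for all genes of that bin. In the middle bin, 39 had a median width of 908 bases, against 2883. In the highest bin, 32 had a median width of 1072 bases, against 3835. The mirror rule's genes did not go 1 way in this. In the lowest bin, 16 of them had a median width of 1370 bases, also below that of all genes. In the middle bin, 19 had a median width of 2877 bases, near that of all genes. In the highest bin, 14 had a median width of 6514 bases. Per length, the 95 genes were the more abundant, with a median of 15.8 RPKM against 4.69 RPKM for the 49 and 4.66 RPKM for all 14339. By CPM, which does not take width into account, the medians were closer, at 26.3, 15.5 and 21.4. No test was made of these differences, since genes are not replicates. The 281 genes that were higher in all animals with a ratio under 0.5 had a median width of 1680 bases.

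**Figure D3:**
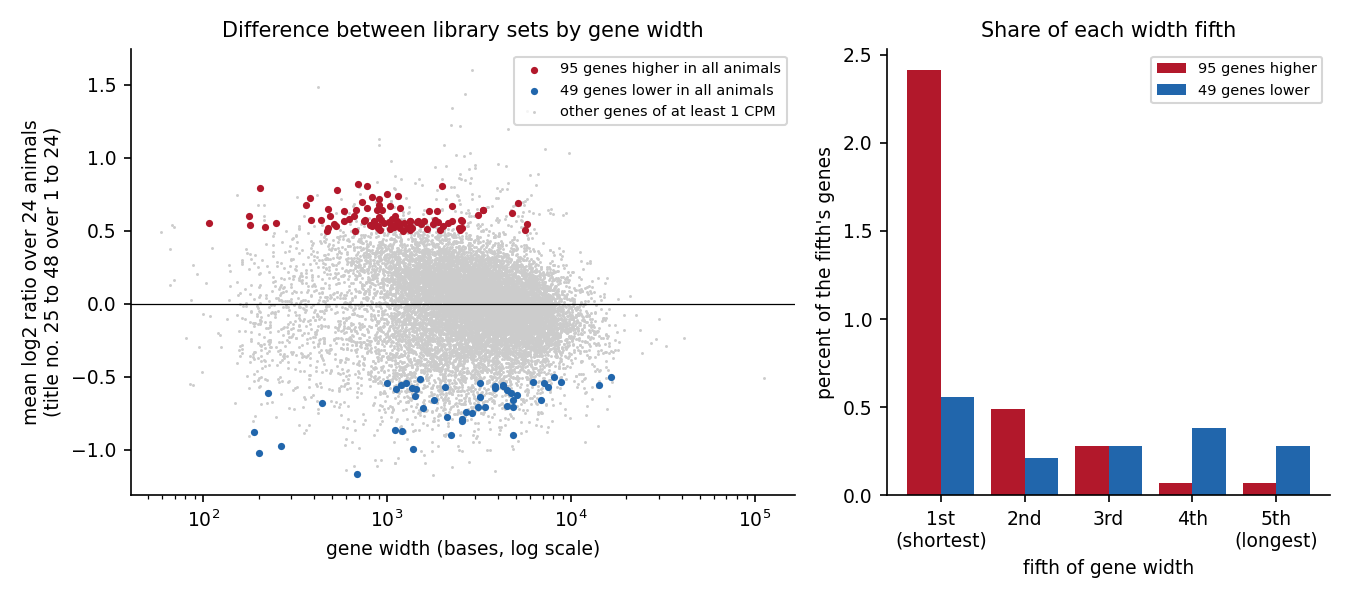
Left, mean log2 ratio between the library sets over 24 animals against gene width (bases, log scale) for the 95 genes, the 49 genes of the mirror rule and all others of at least 1 CPM. Right, the percent of the genes in each of 5 width bins that belonged to the 95 and to the 49. The 95 genes make up 2.41% of the shortest bin and 0.0697% of the longest, while the 49 are spread over the bins.

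Among the genes in neither list, a width trend was present but small. Over these 14195 genes, Spearman's rho across genes between width and the log2 ratio of an animal's libraries ran from -0.328 to 0.127 with a median of -0.108, and it was above 0 in 3 of 24 animals. The median log2 ratio of the shortest width bin minus that of the longest was 0.132 ± 0.121 (SD, n = 24), from -0.10 to 0.44. More of this gap lay on the side of the long genes. With the 95 left out, the median set ratio was 0.025 in the shortest bin and 0.044 in bin 2. It was 0.006 in bin 3, -0.045 in bin 4 and -0.098 in the longest. The animals in which longer genes had the higher ratios were 2 (rho 0.127), 5 (rho 0.0446) and 8 (rho 0.0218). The median ratio of the other genes of the shortest bin ran from -0.30 to 0.23 over the animals. It lay below the mean ratio of the 95 in each animal, which the choice of the 95 by their ratios favours. What part the width trend of the other genes has in the ratios of the 95 was not tested.

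How the 95 genes varied together was described after the mean of each group had been removed. The ratios of a pair of these genes correlated over the 24 animals with a median Pearson r of 0.281 (median Spearman rho 0.286), and 83.9% of their 4465 pairs were positive. Over all pairs of the 14339 genes the median r was 0.0942. Inside each set the medians were also above those of all genes. These levels are the ones from which the ratios that chose the 95 were formed, so they are not separate evidence. No comparison was made with genes of like width. In second-set libraries the median r between the levels (log2 CPM) of a pair of the 95 was 0.260, against 0.117 for all genes, and in first-set libraries it was 0.272 against 0.0705. The 49 genes of the mirror rule were more tightly linked, with median r of 0.545 for the ratios, 0.562 in the second set and 0.558 in the first. Pairs that took 1 gene from the 95 and 1 from the 49 had median r of -0.245, -0.213 and -0.231 in the same order. Points of such a correlation share their libraries, and within a library all genes share 1 total.

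Animals that were high for a gene in one punch tended to be high in the other. With group means removed, the r of a gene's level between the second-set and first-set libraries over 24 animals had a median of 0.660 for the 95 genes, 0.502 for the 49 and 0.550 for all 14339. It was positive for each of the 95, with a lowest value of 0.231, and was over 0.5 for 77 of them, 81.1%, against 57.9% of all genes. The spread between animals of a group was near that of other genes. The median SD of log2 CPM was 0.297 in the second set and 0.264 in the first for the 95, against 0.331 in the second set and 0.251 in the first for all. The ratio itself varied less over animals for the 95 genes (median SD 0.245) than for all (0.290), which a rule that asks for 1 direction in every animal favours. At a like spread between animals, a less variable ratio goes with a higher r between the sets. The rule thus favours a higher r as well, and the r of the 95 is given as a description.

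Outside the 95, the 2 genes whose ratios over the 24 animals were most like the mean ratio of the 95 were ENSMFAG00000044510 (Pearson r 0.859, Spearman rho 0.853) and ENSMFAG00000039783 (r 0.843, rho 0.784). ENSMFAG00000044510, 213 bases wide, was at 2.35 to 7.06 CPM in the second set and 1.49 to 3.72 CPM in the first, and was higher in the second set in 22 of 24 animals with a mean ratio of 0.57. ENSMFAG00000039783, 1258 bases wide, was at 21.2 to 37.5 CPM in the second set and 17.8 to 33.2 CPM in the first, higher in 20 of 24 animals with a mean ratio of 0.26. ENSMFAG00000044510 fell outside the rule because some animals went the other way. For ENSMFAG00000039783 some animals did so as well, and its mean ratio was also under the limit of 0.5.

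The comparisons between antibodies and between days were not part of the rule. For them each animal's 2 libraries were added together, and edgeR's quasi-likelihood test was run on all 16721 genes that passed its filter on low counts, which all 95 did. Adjustment was by Benjamini-Hochberg across the 16721 genes, and a gene passed at an adjusted p under 0.05.

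hPara.09 against anti-gD at day 4 called none of the 95 (smallest adjusted p = 1), where 0% of all genes were called. At an unadjusted p under 0.05 there were 2 of the 95, 2.11%, against 2.59% of all genes. The median log2 fold change of the 95 was -0.03 and that of all genes -0.01. For 67 of the 95 the 95% interval stayed inside 1.5-fold in both directions, and for 93 inside 2-fold. The gene with the smallest p, ENSMFAG00000033296, was at 4.07 to 9.63 CPM (median 7.30) in hPara.09 animals and 2.84 to 6.64 CPM (median 4.44) in anti-gD animals, which overlap. The fitted log2 difference, 0.58 (standard error 0.242), did not pass (edgeR adjusted p = 1).

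At day 28 the same comparison called none of the 95 (smallest adjusted p = 0.947), with 0% of all genes called. At an unadjusted p under 0.05 there were 3, 3.16%, against 4.84% of all genes. The median log2 fold change was 0.04, and that of all genes was 0.00. Intervals lay within 1.5-fold for 75 of the 95 and within 2-fold for 92. The smallest p was that of ENSMFAG00000029925. It stood at 2.32 to 4.55 CPM (median 3.39) in hPara.09 animals and 1.43 to 3.15 CPM (median 2.15) in anti-gD animals at day 28. At day 4 the order was the other way, with 1.60 to 3.75 CPM (median 2.63) in hPara.09 animals and 2.64 to 4.67 CPM (median 3.79) in anti-gD animals. On both days the groups overlapped. In log2 terms hPara.09 over anti-gD was 0.69 with a standard error of 0.224 at day 28 (edgeR adjusted p = 0.947) and -0.53 with a standard error of 0.222 at day 4 (edgeR adjusted p = 1). The difference between these was 1.23 with a standard error of 0.316 (edgeR adjusted p = 1). Neither it nor any other of the 95 passed in that test of the difference between days, in which 0% of all genes were called. At an unadjusted p under 0.05 there were 3 of the 95, 3.16% against 4.28% of all genes. The days have separate control animals. DESeq2 also called none of the 95 in these 3 comparisons, and at most 0.012% of all genes.

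Day 28 was set against day 4 within each antibody and over both. In hPara.09 animals none of the 95 passed, with 0.263% of all genes called (0.179% higher and 0.0837% lower at day 28), and in anti-gD animals none passed, with 0% of all genes called. The smallest adjusted p in edgeR was 0.0899 in hPara.09 animals, for ENSMFAG00000033150. Its level was 41.8 to 59.2 CPM (median 49.5) at day 28 and 53.8 to 74.7 CPM (median 60.9) at day 4. In anti-gD animals it was 0.251, for ENSMFAG00000029925, whose levels are given above. DESeq2 called 1 of the 95 (1.05%) in each, against 3.38% of all genes in hPara.09 animals and 0.33% in anti-gD animals. At an unadjusted p under 0.05 there were 11 of the 95 in hPara.09 animals, 11.6% against 18.2% of all genes, and 17 in anti-gD animals, 17.9% against 10.0% of all genes.

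Over both antibodies 4 of the 95 passed, 1 higher and 3 lower at day 28. This is 4.21%, where 4.60% of all genes were called, 2.46% higher and 2.14% lower, so the share is near the background. Likewise 23 of the 95 had an unadjusted p under 0.05, 24.2% against 23.6% of all genes. The one that rose, ENSMFAG00000001254, was at 5.50 to 13.1 CPM (median 10.1) in the 12 day 28 animals and 2.96 to 8.36 CPM (median 6.07) in the 12 day 4 animals. Most day 28 animals lay above most day 4 animals, and the ranges overlap. Day 28 over day 4 was 0.70 on the log2 scale, standard error 0.160 (edgeR adjusted p = 0.0219).

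ENSMFAG00000044039 fell, with 65.3 to 111 CPM (median 86.7) at day 28 and 80.1 to 121 CPM (median 101) at day 4. Day 28 over day 4 was -0.28 on the log2 scale, standard error 0.0714 (edgeR adjusted p = 0.0283). ENSMFAG00000007184 fell as well, with 184 to 236 CPM (median 206) at day 28 and 202 to 258 CPM (median 228) at day 4. Here the log2 difference was -0.20, standard error 0.0563 (edgeR adjusted p = 0.0390). The remaining one, ENSMFAG00000033150, also fell. It was at 41.8 to 66.3 CPM (median 54.1) at day 28 and 50.9 to 74.7 CPM (median 60.1) at day 4, and its log2 difference was -0.26 with a standard error of 0.0767 (edgeR adjusted p = 0.0490). For all of these the day 28 and day 4 animals overlapped.

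**Figure D4:**
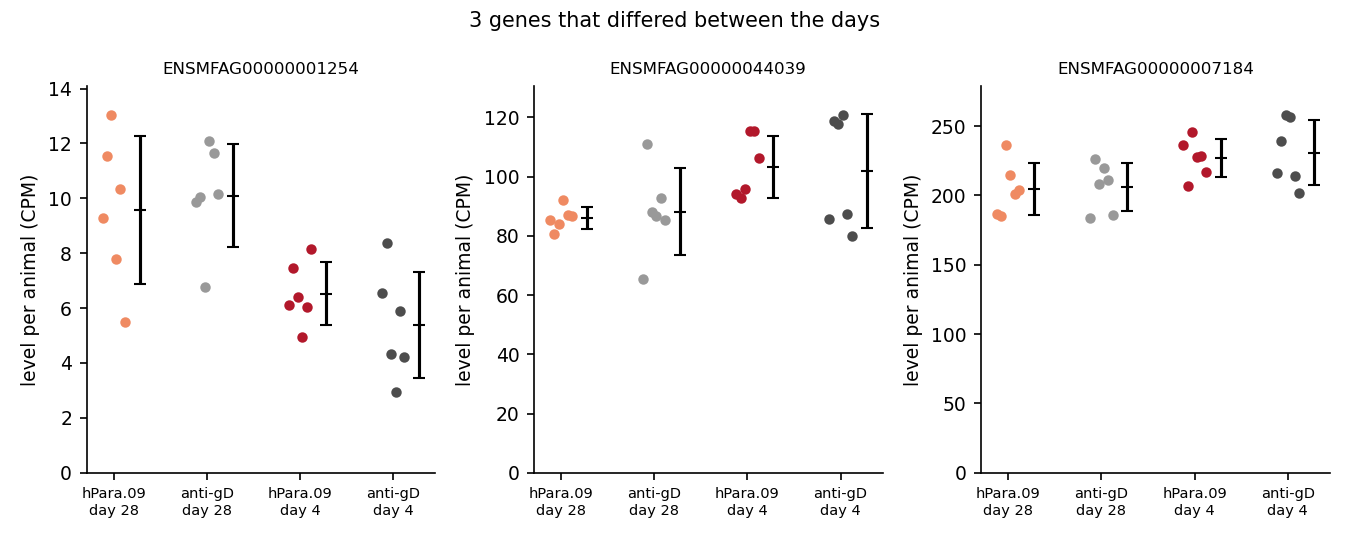
Level per animal (CPM, counts of both libraries summed) of 3 of the 4 genes among the 95 that passed in the comparison of days, with points for the 6 animals of each group and bars for mean ± SD. ENSMFAG00000001254 stands higher and the other 2 lower in both day 28 groups than in both day 4 groups, with overlap between animals.

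Each set of libraries alone gave the same directions for the 3 genes plotted by group, but not the same calls. With second-set libraries alone, where no gene of all those tested passed, the log2 fold changes were 0.70, -0.31 and -0.22 (edgeR adjusted p = 0.110, 0.146 and 0.243). With first-set libraries alone they were 0.63, -0.29 and -0.24 (edgeR adjusted p = 0.0238, 0.0143 and 0.0322). There 9 of the 95 passed, 9.47% against 9.26% of all genes. The 3 genes were not equally steady. Of 31 alternatives, ENSMFAG00000001254 passed in 30, ENSMFAG00000044039 in 27 and ENSMFAG00000007184 in 17. For ENSMFAG00000033150 no such count over both antibodies is given here. The count of 4 also moved with single animals, as did the share of all genes called. It was 1 of the 95 (1.05%) without animal 2, 4 or 10, against 1.71% to 2.11% of all genes. Without animal 3, 7, 11, 12, 18, 20 or 23 it was 2 (2.11%), against 2.38% to 3.30%. It was 7 (7.37%) without animal 14, against 4.40%, and 8 (8.42%) without animal 5, against 6.22%. Without animal 8 it was 9 (9.47%), against 5.62%, and without animal 6 it was 10 (10.5%), against 8.17%.

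Whether the set difference itself differed between antibodies or between days was tested over all 48 libraries, with the animal as a block and 16843 genes. By antibody none of the 95 passed in edgeR (smallest adjusted p = 0.761), where 0% of all genes were called. At an unadjusted p under 0.05 there were 10 of the 95, 10.5% against 6.30% of all genes. The difference was smaller in hPara.09 animals for 86 of the 95, with a median log2 difference of -0.11 against 0.01 over all genes. The 95 share their libraries, so these are not 86 separate observations. Of all genes tested, 47.4% had the smaller difference in hPara.09 animals. The scaling moved the 95 and the other genes alike. With TMM-scaled CPM, 87 of the 95 and 49.1% of the 14339 genes had the smaller ratio in hPara.09 animals, and the median log2 differences were -0.11 for the 95 and 0.00 for the 14339. On plain totals they were 63 of the 95 and 27.9% of the 14339, with medians of -0.04 and 0.08. On plain totals the mean ratio over the 95 was 0.567 ± 0.122 (SD, n = 12) in hPara.09 animals and 0.617 ± 0.153 (SD, n = 12) in anti-gD animals, and the ranges, 0.35 to 0.73 and 0.35 to 0.84, overlapped. ENSMFAG00000023471 had the smallest p. Its log2 ratio was 0.27 to 0.78 in hPara.09 and 0.19 to 0.95 in anti-gD animals at day 4, and 0.20 to 0.45 in hPara.09 and 0.38 to 0.94 in anti-gD animals at day 28. Its fitted difference was -0.33 with a standard error of 0.109 (edgeR adjusted p = 0.761).

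By day, too, none of the 95 passed (smallest adjusted p = 0.706 in edgeR), where 0% of all genes were called. At an unadjusted p under 0.05 there was 1 of the 95, 1.05% against 6.96% of all genes. The median log2 difference of the 95 was 0.04 and that of all genes 0.02. Intervals lay within 1.5-fold for 93 of the 95 by day and for 87 by antibody, and within 2-fold for all 95 in both. In both comparisons the median standard error was 0.109 for the 95 and 0.128 for all genes. The choice of the 95 by their ratios in every animal favours such narrow intervals. It also left out every gene whose difference was reversed in any animal. Neither comparison of library sets is therefore independent of the rule, and the lack of calls among the 95 is given as a description. The gene with the smallest p was ENSMFAG00000045768, with a log2 ratio of 0.39 to 1.33 (median 0.74) in the 12 day 28 animals and 0.34 to 0.79 (median 0.50) in the 12 day 4 animals. Its fitted difference was 0.21 with a standard error of 0.0932 (edgeR adjusted p = 0.706).

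**Figure D5:**
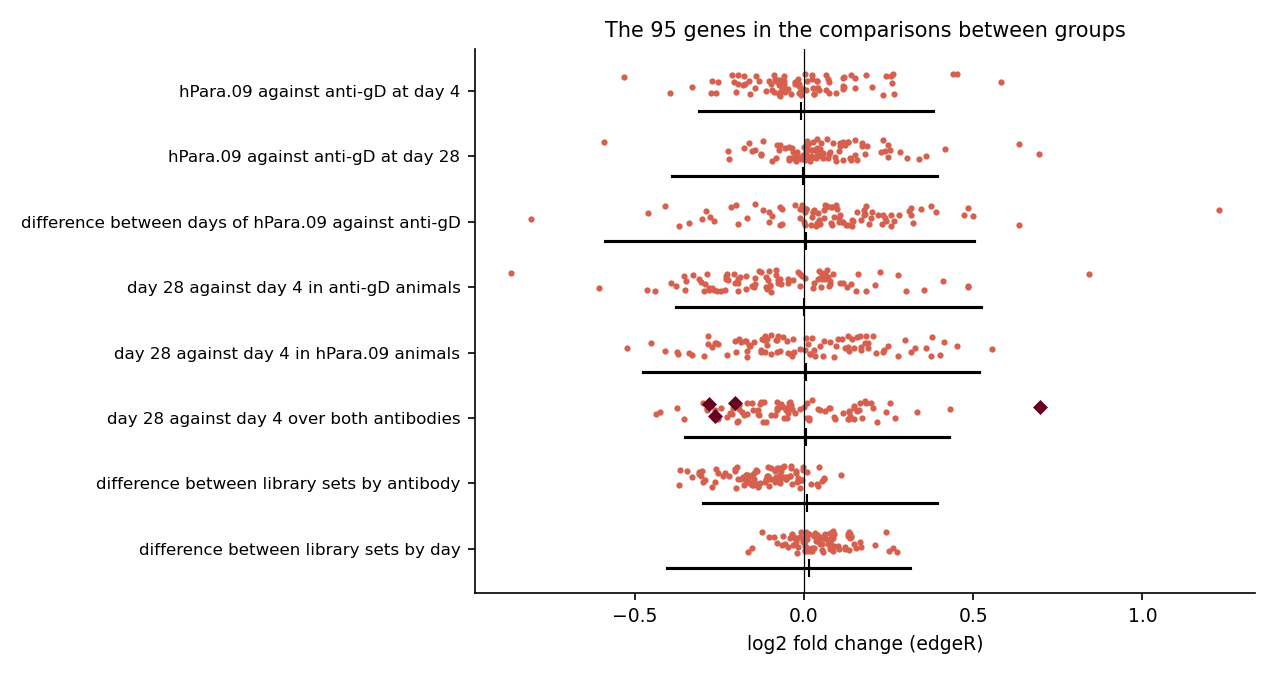
Log2 fold changes of the 95 genes (points) in the 8 comparisons between antibodies or days, with diamonds for those at an edgeR adjusted p under 0.05. The comparisons of library sets divide by antibody or by day the ratios that chose the 95. The black line under each row runs from the 5th to the 95th percentile of all genes tested and its tick is their median. Diamonds appear only in the comparison of days over both antibodies, with 1 gene higher and 3 lower at day 28.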

How the data were processed

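Bulk RNA-seq was measured in 48 libraries, 2 from each of 24 animals. The deposited file of each library held a raw count of exonic reads, a gene width and an RPKM value for each ID, per the file headers. RPKM was computed by the authors from a read total larger than the sum of the counts, as the deposited count, width and RPKM of each gene show. GSNAP is named in the submitters' processing notes. Its version, the genome build, annotation and strand setting: not given in the sources used here. Values of overlapping genes and of near-identical copies are thus uncertain.

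CPM was computed on plain totals. Tests used edgeR 4.0.16 in R 4.3.3 (TMM factors, default filter, robust quasi-likelihood), with DESeq2 1.42.0 and limma 3.58.1 as alternatives. Each standard error was obtained from the fitted log2 difference and its F statistic (size over root F). The fits were first run on simulated data with known changes, for a comparison of antibodies and a comparison of library sets. The outcome is not given here. Depth of 12137146 to 32118950 counts per library limits low genes most. The 95 genes, the comparisons and the gene lists were chosen with earlier results of these data known. Genes were named by rank: the 2 largest set ratios, the 2 highest levels, the nearest to the limit, the smallest p of each comparison with at most 2 called each way, and the 2 most alike outside the list. ENSMFAG00000033150 was added among the called. Library pairs come from the same animal, per the labels, and the animal was the block. The lists of cell type markers and pathways fixed for this work were not analysed, since no ID had a name.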

Additional observations from a re-analysis of the deposited data

Results flagged for a closer look

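In sets of 6 animals, 168 were examined for a sample standing apart from the other 5 by its gap relative to the range (Dixon's criterion), and 10 met it. Chance gives about 1 in 20.

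Animal 8 of the hPara.09 day 4 group met it for ENSMFAG00000030460 in all 3 measures. Its level was 5.97 CPM in the second set, where the other animals of the group lay between 2.67 and 3.11 CPM. In the first set it was 5.90 CPM, where the others lay between 0.880 and 1.53 CPM. The log2 ratio was therefore 0.016 in that animal and 0.82 to 1.22 in the others. In the anti-gD day 4 group, animal 6 had 0.712 CPM of the same gene in the first set, below the others at 1.25 to 1.54 CPM.

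The log2 ratio of ENSMFAG00000009769 was 1.21 in animal 12 of the hPara.09 day 4 group and 0.61 to 0.74 in the others. That of ENSMFAG00000029925 was 1.01 in animal 20 of the hPara.09 day 28 group and 0.19 to 0.50 in the others. ENSMFAG00000026126 was high in the first set in animal 7 of the hPara.09 day 4 group, at 541.6 CPM against 395.9 to 447.4 CPM in the others. It was also high there in animal 14 of the anti-gD day 28 group, at 450.4 CPM against 352.9 to 381.1 CPM. Animal 13 of the anti-gD day 28 group was high in the second set for 2 genes. ENSMFAG00000042941 stood at 3244 CPM against 1673 to 2261 CPM in the others, and ENSMFAG00000045768 at 51.5 CPM against 34.5 to 40.3 CPM.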

How the results depend on the processing

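The number of genes meeting the rule depended most on the limit set on the mean log2 ratio, with 361 genes at 0.25 and 0 at 1. Leaving out 1 animal at a time gave 86 to 109 genes, and their median width then lay between 1008 and 1084 bases. The other alternatives gave 66 to 134 genes. With TMM scaling there were 126, of which 86 were among the 95. Leaving out animals 5 and 16, an alternative chosen after seeing the data, gave 102, of which 88 were among the 95.

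For day 28 against day 4 over both antibodies, DESeq2 called 10 of the 95 (10.5%, against 8.98% of all genes), no filter on low counts gave 2 (2.11% against 2.26%), first-set libraries alone gave 9 (9.47% against 9.26%) and second-set libraries alone gave 0 (0% of all genes). Leaving out single animals gave 1 to 10, with 1.71% to 8.17% of all genes. In anti-gD animals DESeq2 gave 1 (1.05% against 0.33%), as did first-set libraries alone (against 0.10%). In hPara.09 animals DESeq2 gave 1 (against 3.38%), and leaving out single animals gave 0 to 1, the 1 without animal 8 (against 1.06%). The cause was not tested. In the comparisons of hPara.09 with anti-gD, and of library sets by antibody and by day, 0 were called under each alternative run, the fit of library sets with no replicate block included. No direction was reversed. Depth limits the genes of few counts, the lowest count of any of the 95 in a library being 4. Intervals cover the spread between animals, and 2 punches of 1 animal are not independent.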
